A study of Mus musculus with 6 samples.

Results

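The 10 genes described here encode the collagen I chains (Col1a1, Col1a2), the small proteoglycans osteoglycin and biglycan (Ogn, Bgn), fibronectin (Fn1), the matricellular proteins thrombospondin-1 and thrombospondin-2 (Thbs1, Thbs2), SPARC (Sparc) and periostin (Postn), and the matrix-associated protein CCDC80 (Ccdc80). They were found by gene symbol in a count table of 55487 genes, and all 10 were listed in it. The set was chosen from the comparison of shOSGEP with shCtr libraries that is described below, with its values known. The values of the 10 genes in that comparison are therefore a description and are given without a test.

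B16F10 is a mouse melanoma cell line, grown here in culture. Cells were infected with a scramble shRNA (shCtr, labelled WT, n = 3) or with shRNA OSGEP#2 (shOSGEP, labelled KD OSGEP, n = 3), and RNA of 3 independent infections was sequenced per group. Both groups thus carried an shRNA vector, and the depleted group rests on 1 hairpin in 1 cell line. OSGEP is the enzyme of the KEOPS complex that places the t6A modification next to the anticodon of tRNAs that read codons starting with A (ANN codons). The comparison asks which mRNAs differ in level when this enzyme is depleted.

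Collagen I is a triple helix of chains from Col1a1 and Col1a2 and is the main fibre of skin, tendon and bone. Fibronectin and small leucine-rich proteoglycans bind to such fibres and influence their assembly, whereas matricellular proteins are secreted into the matrix and act on cells and on growth factors more than as structural parts. In skin these genes are typical of fibroblasts, and melanoma cells are known to express some of them, SPARC above all.

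Because t6A acts at ANN codons, the coding sequences of 5 of the genes are shown first, as the middle 30 codons of each with the ANN codons in capitals. The 2 collagen I chains are given for their low ANN content, Ogn and Postn for their high content, and Sparc as the most abundant mRNA of the group. The sequences were read from the GENCODE M21 transcripts of GRCm38.
Col1a1, codons 712 to 741: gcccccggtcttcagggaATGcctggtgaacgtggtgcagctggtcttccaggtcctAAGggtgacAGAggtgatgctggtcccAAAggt
Col1a2, codons 672 to 701: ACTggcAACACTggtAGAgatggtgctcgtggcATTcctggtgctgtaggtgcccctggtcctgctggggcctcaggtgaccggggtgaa
Ogn, codons 135 to 164: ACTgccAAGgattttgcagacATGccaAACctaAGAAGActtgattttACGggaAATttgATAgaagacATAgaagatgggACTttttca
Postn, codons 405 to 434: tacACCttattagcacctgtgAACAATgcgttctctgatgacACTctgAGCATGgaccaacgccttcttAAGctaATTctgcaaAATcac
Sparc, codons 152 to 181: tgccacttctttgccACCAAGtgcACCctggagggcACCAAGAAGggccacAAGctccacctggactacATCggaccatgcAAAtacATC
The collagen chains held 4 and 5 ANN codons in these windows, and the repeated GGN codons of their glycine repeat are visible in lower case. The windows of Ogn, Postn and Sparc held 11, 9 and 10 ANN codons.

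Over the whole coding sequence the 10 genes lay between percentiles 1.17 and 96.2 of the tested genes, whose median ANN share was 26.9% (11531 genes). Col1a1 had 14.7% ANN codons among 1453 codons, at percentile 1.17 of tested genes. Col1a2 had 16.5% among 1372 codons, at percentile 2.53. GGN codons made up 26.8% of Col1a1 and 27.8% of Col1a2. At the other end, Postn had 34.6% ANN codons (838 codons), at percentile 96.2, and Ogn had 31.9% (298 codons), at percentile 88.1. Ccdc80 had 30.6%, Fn1 30.3%, Bgn 28.2%, Thbs1 26.4%, Thbs2 25.8% and Sparc 24.4%. The genes with the lowest shares, the collagen chains, and one with a high share, Ogn, were all higher in shOSGEP, as the values below show. All were chosen from this contrast, and Col1a1 and Ogn passed the filter on low counts only through shOSGEP, so their direction was fixed. A link between ANN share and RNA level was not tested. RNA levels say nothing of how the codons were decoded, which was not measured in these libraries.

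**Figure D1:**
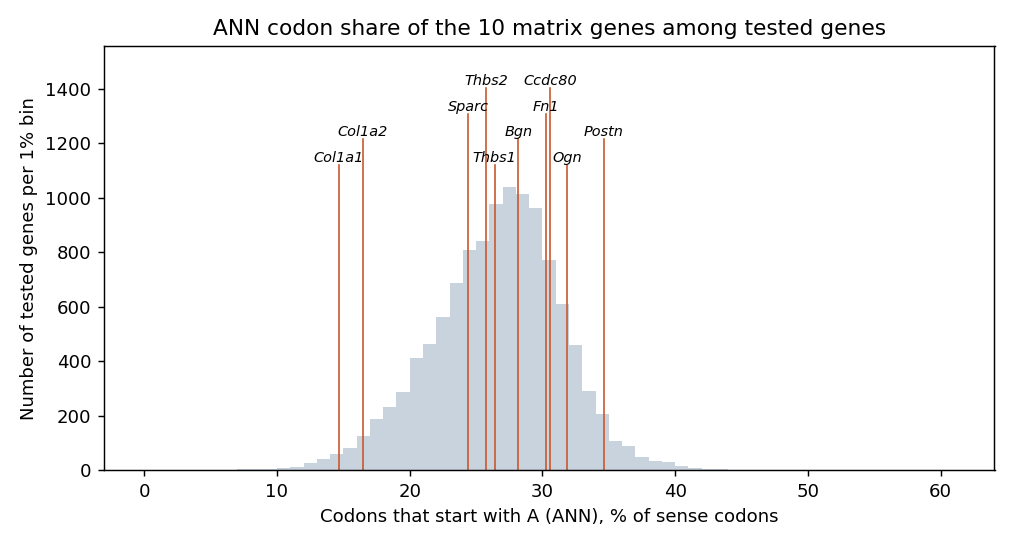
The histogram gives the number of tested genes per 1% bin of ANN codon share (x axis, percent of sense codons), and each vertical line marks one of the 10 genes; line height has no meaning. Col1a1 (14.7%) and Col1a2 (16.5%) lie in the left tail, and Postn (34.6%) lies in the right tail.

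The promoter sequences of 4 genes are shown as the 250 bases before the RefSeq transcript start (GRCm38.p6), 5′ to 3′ on the strand of the gene, since 3 of them were higher in shOSGEP in all 3 same-numbered comparisons while Sparc differed little. Capitals mark a TATA box (TATAAA) or a CCAAT box (CCAAT), on either strand.
Col1a2, chr6:4505368-4505617, plus strand: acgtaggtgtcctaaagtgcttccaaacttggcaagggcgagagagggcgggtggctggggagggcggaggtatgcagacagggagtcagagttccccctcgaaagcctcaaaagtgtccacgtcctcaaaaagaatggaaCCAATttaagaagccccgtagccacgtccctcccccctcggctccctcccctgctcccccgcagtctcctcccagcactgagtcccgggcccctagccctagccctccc
Ogn, chr13:49607765-49608014, plus strand: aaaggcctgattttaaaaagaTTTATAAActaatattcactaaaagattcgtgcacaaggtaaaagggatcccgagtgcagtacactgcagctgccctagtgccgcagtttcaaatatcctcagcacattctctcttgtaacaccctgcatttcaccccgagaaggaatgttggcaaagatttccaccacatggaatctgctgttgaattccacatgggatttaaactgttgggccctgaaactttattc
Postn, chr3:54360857-54361106, plus strand: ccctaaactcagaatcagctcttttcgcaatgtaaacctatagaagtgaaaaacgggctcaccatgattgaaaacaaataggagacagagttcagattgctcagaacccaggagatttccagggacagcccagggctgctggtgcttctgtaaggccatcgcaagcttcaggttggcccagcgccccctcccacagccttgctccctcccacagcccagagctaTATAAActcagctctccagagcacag
Sparc, chr11:55420081-55420330, minus strand: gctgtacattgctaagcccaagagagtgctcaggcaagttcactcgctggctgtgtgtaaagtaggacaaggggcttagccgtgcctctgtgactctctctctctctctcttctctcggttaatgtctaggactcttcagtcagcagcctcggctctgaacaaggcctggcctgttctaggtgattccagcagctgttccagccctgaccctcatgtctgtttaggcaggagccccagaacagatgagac
The windows of Col1a2 and Sparc lie inside the longer gene spans of GENCODE given below. The Col1a2 window held CCAAT from -109 to -105 relative to the start. The Postn window held TATAAA from -26 to -21, and a second, upstream Postn start had none of the motifs. In the Ogn window TATAAA lay from -227 to -222 and overlapped its reverse complement from -229 to -224. The Sparc window held none of the motifs, and neither did that of Bgn. Thbs2 held CCAAT from -144 to -140, its reverse complement from -186 to -182 and that of TATAAA from -126 to -121. Among 32851 windows of the same length, 12.4% held TATAAA and 33.8% held CCAAT. The AP-1 motif TGANTCA (6.75% of windows) and the stress element TGATGNAAN (3.44%) were searched on both strands as well, and no window of these genes held either. A match is a run of letters and not a measured binding site.

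The libraries held between 18915587 and 29487384 counts. Values are given below as CPM, counts scaled to the TMM-adjusted library size, in the order of replicates 1, 2 and 3. Expression was high enough to test for 12669 genes. In edgeR's quasi-likelihood test 0 of them (0%) reached a Benjamini-Hochberg adjusted p under 0.05, while the unadjusted p was under 0.05 for 256. The adjusted threshold was passed by 14 genes in DESeq2 and by 3 in limma-voom with sample quality weights. The targeted gene Osgep measured 20.6, 58.6 and 21.8 CPM in the shCtr libraries, against 4.28, 0.542 and 5.52 CPM in those of shOSGEP, so every library went with its label. The library shCtr 2 stood apart by composition: 660 genes under 40% GC were a median of -3.18 (log2 CPM) from the other shCtr libraries there, and 579 genes over 60% GC were 1.44 above them.

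Of the 10 genes, 8 passed the filter on low counts and 2, Bgn and Thbs2, did not. Ogn, Ccdc80 and Col1a1 passed it only through their shOSGEP libraries, so that their direction among the tested genes was fixed by the filter. All 8 tested genes had a Log2FC above 0. Non-overlapping groups were found for 5 of them (Ogn, Ccdc80, Col1a1, Col1a2 and Thbs1), beside 3.49% of all tested genes that lay apart in the higher direction and 2.87% in the lower direction. The same 5 passed the threshold stated by the study (unadjusted p under 0.05 and a Log2FC beyond 0.5), which 1.59% of all tested genes passed in the higher direction and 0.426% in the lower direction. Since the genes were chosen from this contrast, these counts carry no further weight.

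**Figure D2:**
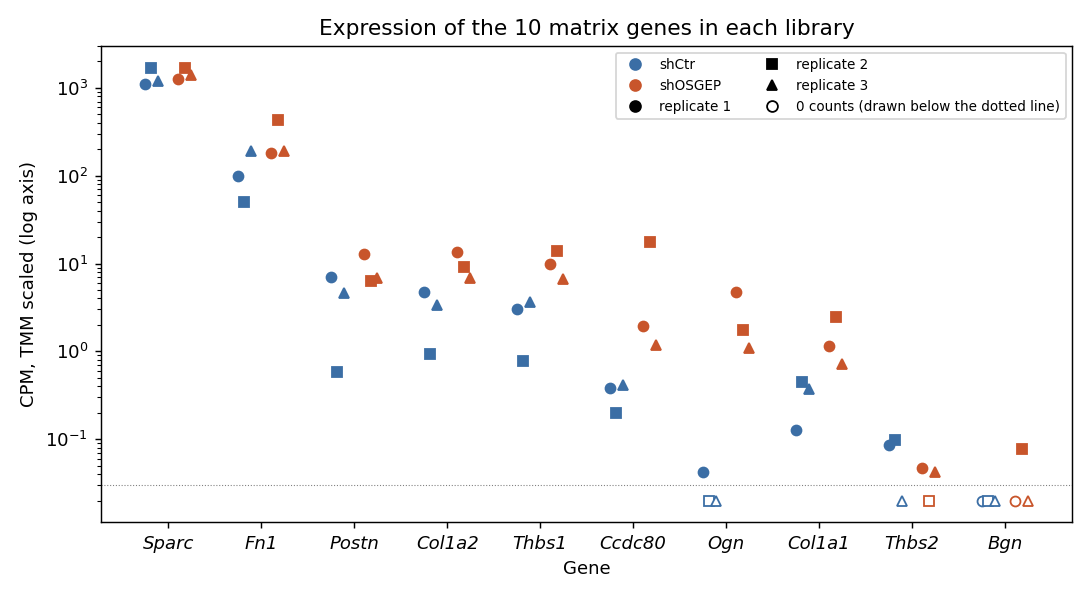
Each point is the expression of one gene in one library (y axis, TMM-scaled CPM on a log scale); colour gives the group, marker shape the replicate number, and open markers below the dotted line are libraries with 0 counts. Sparc lies at 1098 CPM or more in all 6 libraries, and the shOSGEP points of Col1a2, Thbs1, Ccdc80, Ogn and Col1a1 lie above all of their shCtr points.

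The collagen I chains were low in all libraries and higher in shOSGEP. Col1a1 (ENSMUSG00000001506, chr11:94936224-94953042, plus strand) encodes the alpha 1 chain. It had 3, 9 and 8 counts in shCtr and 25, 63 and 17 counts in shOSGEP, which is 0.127, 0.442 and 0.369 CPM against 1.16, 2.44 and 0.721 CPM. Every shOSGEP library was above every shCtr library, with shOSGEP 2 the highest and shCtr 1 the lowest. The means were 0.313 ± 0.165 and 1.44 ± 0.893 CPM (SD, n = 3), a Log2FC of 2.20 (SE 0.742). The counts were few, and over the groups the ratio was 4.86 with a 95% counting interval from 2.99 to 8.27, which covers counting error only.

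Col1a2 (ENSMUSG00000029661, chr6:4504814-4541544, plus strand) encodes the alpha 2 chain. It measured 4.72, 0.934 and 3.41 CPM in shCtr libraries (111, 19 and 74 counts), against 13.4, 9.22 and 6.83 CPM in those of shOSGEP (289, 238 and 161 counts). The groups did not overlap, and shCtr 2 was the low library of its group. The means were 3.02 ± 1.92 and 9.83 ± 3.35 CPM (SD, n = 3), a Log2FC of 1.70 (SE 0.667). Without shCtr 2 the Log2FC was 1.27. Gm43921, which overlaps Col1a2 on the same strand, had no count in any library.

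The ratio of the chains differed between libraries. Per length, the Col1a2 level was 41.0, 2.34 and 10.3 times the Col1a1 level in shCtr and 12.8, 4.19 and 10.5 times in shOSGEP. The 95% binomial intervals of these ratios in shCtr ran from 13.7 to 202, from 1.01 to 5.87 and from 4.94 to 24.6, and in shOSGEP from 8.51 to 20.1, from 3.16 to 5.62 and from 6.36 to 18.5. Col1a2 was thus above Col1a1 per length in all 6 libraries, and the lowest ratio of each group was that of replicate 2. The transcripts differ in GC content (58.9% for Col1a1, 55.7% for Col1a2), and its part in these ratios was not tested.

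Of the small proteoglycans, which bind collagen fibrils, Ogn was detected mostly in shOSGEP and Bgn in hardly any library. Ogn (ENSMUSG00000021390, chr13:49608046-49624501, plus strand) encodes osteoglycin. It had 1, 0 and 0 counts in shCtr and 103, 45 and 26 counts in shOSGEP, or 4.79, 1.74 and 1.10 CPM in the latter. All shCtr libraries were under the floor of 3 counts, and shOSGEP 1 was the highest library. The group totals of 1 and 174 counts gave a ratio of 161, with a 95% counting interval from 28.5 to 6394. In replicates 2 and 3, where shCtr had 0 counts, shOSGEP was at least 11.8-fold and at least 7.97-fold higher than the floor of the shCtr library. The Ogn transcript is poor in GC (36.3%, percentile 0.537 of tested genes), the class that was low in shCtr 2. The part of GC content in the Ogn counts was not tested.

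Ogn lies within Cenpp, a kinetochore gene on the opposite strand, and the library kit was not stated to keep the strand. Cenpp measured 8.37, 2.65 and 6.13 CPM in the shCtr libraries, against 6.70, 6.82 and 5.85 CPM in those of shOSGEP, with a Log2FC of 0.17 (SE 0.545). Its values overlapped between the groups, and the part of its reads in the Ogn counts was not tested. Bgn (ENSMUSG00000031375, chrX:73483602-73495933, plus strand), which encodes biglycan, had 0 counts in all libraries but shOSGEP 2, which had 2 counts. Both groups of Bgn were under the floor of 3 counts in every library, so a difference was not detectable at this depth.

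Fn1 (ENSMUSG00000026193, chr1:71585520-71653200, minus strand) encodes fibronectin, a glycoprotein that links integrins to collagen and on which matrix fibrils are assembled. It measured 98.6, 50.4 and 191 CPM in the shCtr libraries, against 180, 436 and 193 CPM in those of shOSGEP. The groups overlapped, since shOSGEP 1 was below shCtr 3. The means were 113 ± 71.7 and 270 ± 144 CPM (SD, n = 3), a Log2FC of 1.25 (SE 0.603).

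The Fn1 difference lay mostly in replicate 2. The log2 ratios of same-numbered libraries were 0.87, 3.11 and 0.01, and in replicate 3 the levels were thus nearly equal. Without shOSGEP 2 the Log2FC was 0.72, without both libraries of replicate 2 it was 0.37, and limma-voom with sample quality weights gave 0.28. Apol7d overlaps Fn1 on the opposite strand and reached at most 1.01 CPM.

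The thrombospondins are secreted glycoproteins that bind cells, proteases and growth factors, and thrombospondin-1 is known to inhibit angiogenesis. Thbs1 (ENSMUSG00000040152, chr2:118111876-118127133, plus strand) measured 3.06, 0.787 and 3.64 CPM in shCtr libraries (72, 16 and 79 counts), against 9.96, 14.0 and 6.66 CPM in those of shOSGEP (214, 361 and 157 counts). The groups did not overlap, with shCtr 2 the lowest and shOSGEP 2 the highest library. The means were 2.50 ± 1.51 and 10.2 ± 3.67 CPM (SD, n = 3), a Log2FC of 2.03 (SE 0.670). Without both libraries of replicate 2 the Log2FC was 1.31. Thbs2 (ENSMUSG00000023885, chr17:14665500-14694235, minus strand), its close relative, had 2, 2 and 0 counts in shCtr and 1, 0 and 1 counts in shOSGEP, under the floor in every library.

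Sparc (ENSMUSG00000018593, chr11:55394500-55423183, minus strand) encodes SPARC, or osteonectin, a collagen-binding glycoprotein that acts on matrix assembly and cell adhesion. It measured 1098, 1703 and 1201 CPM in the shCtr libraries, against 1247, 1688 and 1385 CPM in those of shOSGEP. The groups overlapped, and in both of them replicate 2 was the highest library. The means were 1334 ± 324 and 1440 ± 226 CPM (SD, n = 3), a Log2FC of 0.11 (SE 0.442). By its mean count Sparc ranked 71 of 55487 genes. The direction was not stable, since the Log2FC was -0.0094 without shCtr 1.

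Postn (ENSMUSG00000027750, chr3:54361109-54391037, plus strand) encodes periostin, which binds integrins and collagen and takes part in collagen crosslinking. It measured 6.97, 0.590 and 4.57 CPM in shCtr libraries (164, 12 and 99 counts), against 12.9, 6.35 and 6.79 CPM in those of shOSGEP (278, 164 and 160 counts). The groups overlapped, since shOSGEP 2 and 3 were below shCtr 1, while each shOSGEP library was above the shCtr library of the same number. The means were 4.04 ± 3.22 and 8.69 ± 3.68 CPM (SD, n = 3), a Log2FC of 1.10 (SE 0.812). Without shCtr 2, which was low, the Log2FC was 0.59.

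Ccdc80 (ENSMUSG00000022665, chr16:45093402-45128077, plus strand) encodes a secreted matrix protein that is known for roles in cell adhesion and adipocyte differentiation. It measured 0.382, 0.197 and 0.415 CPM in shCtr libraries (9, 4 and 9 counts), against 1.95, 17.5 and 1.19 CPM in those of shOSGEP (42, 451 and 28 counts). The groups did not overlap, but shOSGEP 2 stood far above the other 2 shOSGEP libraries. The means were 0.331 ± 0.118 and 6.87 ± 9.19 CPM (SD, n = 3), a Log2FC of 4.35 (SE 1.14). Without shOSGEP 2 the Log2FC was 2.23, and without both libraries of replicate 2 it was 1.96. In replicates 1 and 3 the log2 ratios of same-numbered libraries were 2.35 and 1.52.

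Compared by level per length (CPM per kb of transcript), the genes covered several orders of magnitude. In shCtr the mean was 580 CPM per kb for Sparc, 13.6 for Fn1, 1.26 for Postn, 0.565 for Col1a2, 0.427 for Thbs1, 0.0812 for Ccdc80 and 0.0528 for Col1a1. In shOSGEP it was 626 for Sparc, 32.5 for Fn1, 2.71 for Postn, 1.84 for Col1a2, 1.74 for Thbs1, 1.68 for Ccdc80, 0.992 for Ogn and 0.243 for Col1a1. Sparc and Fn1 were set apart from all others in every library of both groups. The ranges of Postn, Col1a2 and Thbs1 over libraries overlapped in both groups. Within a library Postn was above Col1a2 in all 6, and Col1a2 was above Thbs1 in all but shOSGEP 2. Some of these differences were small for the counts. In shCtr 2 Postn was at 0.184 and Col1a2 at 0.175 CPM per kb (12 and 19 counts). In shCtr 3 Col1a2 was at 0.638 and Thbs1 at 0.623 CPM per kb (74 and 79 counts). In shOSGEP the range of Ccdc80 overlapped those of Postn, Col1a2, Thbs1, Ogn and Col1a1, while Ogn overlapped Col1a2 and Thbs1 but stayed below Postn. Sparc alone made up between 92.0% and 99.1% of the per-length sum of the 10 genes.

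Summed without Sparc and Fn1, the other 8 genes were at 3.73, 0.633 and 2.85 CPM per kb in shCtr and at 10.8, 11.5 and 5.38 CPM per kb in shOSGEP. Each shOSGEP sum was above each shCtr sum, and the lowest was that of shCtr 2. The lowest shCtr library was replicate 2 for Ccdc80, Col1a2, Fn1, Thbs1 and Postn. The highest shOSGEP library was replicate 2 for Ccdc80, Col1a1, Fn1, Thbs1 and Sparc and replicate 1 for Ogn, Col1a2 and Postn.

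Compared within the same replicate number, 8, 7 and 8 of the 8 tested genes were higher in shOSGEP in replicates 1, 2 and 3. The exception was Sparc in replicate 2, with a log2 ratio of -0.01. The median log2 ratio of the 8 genes (pseudocount 0.1 CPM) was 1.58, 3.20 and 0.83, beside -0.03, 0.11 and -0.01 for all tested genes. The size of the difference thus varied with the replicate, being largest in replicate 2 and smallest in replicate 3. For Col1a1 the largest log2 ratio was that of replicate 1, at 3.19, against 2.46 and 0.97. Col1a2 had log2 ratios of 1.51, 3.30 and 1.00, Thbs1 of 1.70, 4.15 and 0.87, and Postn of 0.89, 3.43 and 0.57.

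**Figure D3:**
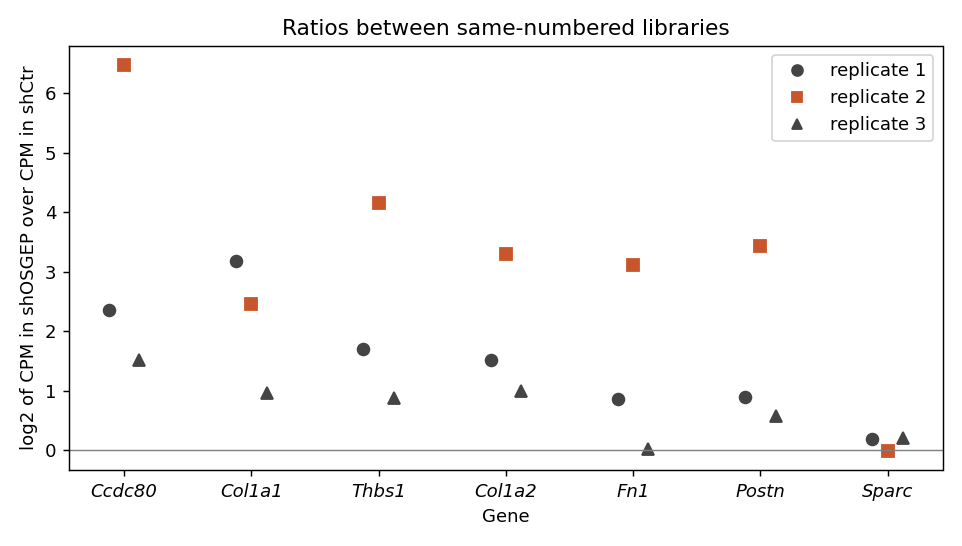
Points give the log2 ratio of CPM in the shOSGEP library over the shCtr library of the same replicate number (y axis) for the 7 genes with counts in all 6 libraries; Ogn is left out because 2 shCtr libraries had 0 counts. Replicate 2 (orange squares) is highest for every gene except Col1a1 and Sparc, and replicate 3 for Fn1 lies at 0.01.

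The median Log2FC of the 8 tested genes was 1.86, beside -0.03 for all tested genes. With Ogn at its bound against the floor it was also 1.86, which had to be so, since Ogn lies above the median either way. Ogn, Ccdc80 and Col1a1, which passed the filter only through shOSGEP, all lay above that median. Over 18 other settings the median ranged from 1.28 to 2.34. The 1.28 came from requiring at least 10 counts in every library, which left these 3 genes out. The Log2FC of Col1a1 ranged from 1.55 to 2.67, of Col1a2 from 1.27 to 2.17, of Thbs1 from 1.26 to 2.63 and of Postn from 0.59 to 1.75. The ranges were 1.96 to 5.04 for Ccdc80 and 0.28 to 2.05 for Fn1, and leaving out the replicate 2 pair lowered both. The fitted value of Ogn is not given, since it depends on how 0 counts are treated.

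**Figure D4:**
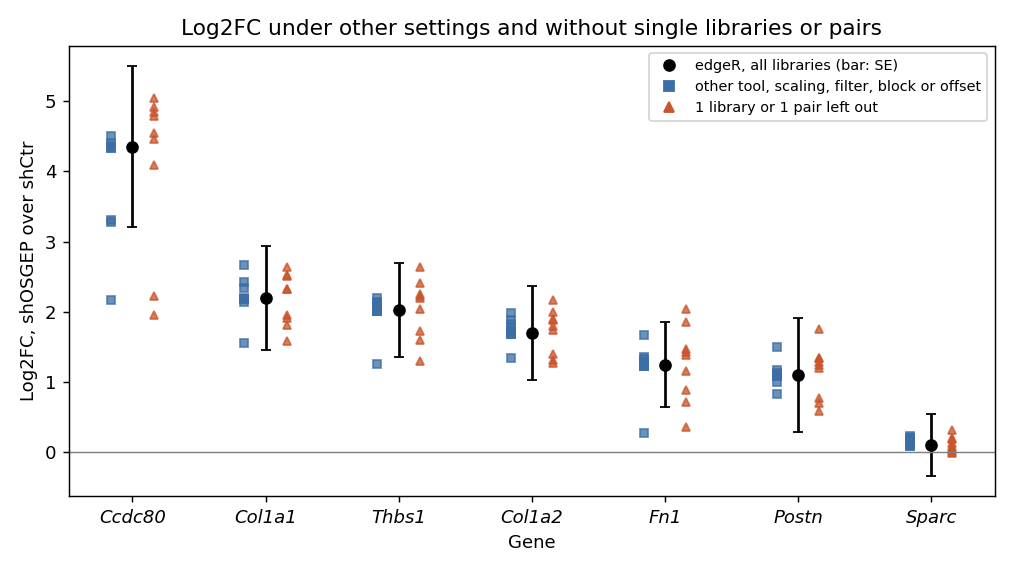
Black points give the edgeR Log2FC of each gene with all libraries and bars its SE; blue squares are other tools, scalings, filters, offsets or the replicate block, and orange triangles leave out 1 library or 1 same-numbered pair. All values of Col1a1, Col1a2, Thbs1, Postn, Fn1 and Ccdc80 lie above 0, and those of Sparc lie between -0.0094 and 0.32.

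Since fibroblasts are the main source of collagen I in tissue, markers of other cell types were read beside these values. Of 12 fibroblast markers, Dcn, Dpt, Thy1 and Twist2 had no count in any library, Col3a1 and Lum were also at or under the floor in all libraries, and 3 (Pdgfra, Pdgfrb and Tagln) were high enough to test. These 3 all had a Log2FC above 0, with a median of 0.87. Pdgfrb measured 8.12, 4.42 and 9.18 CPM in the shCtr libraries, against 13.0, 15.3 and 11.4 CPM in those of shOSGEP. Its groups did not overlap, beside 3.49% of all tested genes in that direction. Those of Tagln and Acta2 did not overlap either. Acta2 was too low to test, and Tagln passed the filter on low counts only through shOSGEP, so its direction was fixed. Tagln had 0, 4 and 5 counts in shCtr, and the groups of Pdgfra overlapped. The summed fibroblast list was between 5.36 and 11.4 CPM in shCtr and between 14.1 and 41.4 CPM in shOSGEP. The highest sum was that of shOSGEP 2, which had 8.83 CPM of Acta2 and 12.9 CPM of Tagln, contractile genes that were at most 0.186 and 1.12 CPM elsewhere. This is also the library in which Ccdc80, Col1a1, Fn1 and Thbs1 were highest, and the part of these markers in the values was not tested.

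The 12 melanocyte markers were all tested, and their sum ran from 18025 to 32539 CPM in shCtr and from 3848 to 19401 CPM in shOSGEP, lowest in shOSGEP 2. All 12 had a Log2FC below 0, while 47.3% of all tested genes had one above 0. The difference lay mostly in replicate 2, where the median log2 ratio of the 12 markers was -3.16 and 1 was higher in shOSGEP. Both libraries of that replicate stood apart, with sums of 32539 CPM in shCtr 2 and 3848 CPM in shOSGEP 2. The sums were 18929 and 18025 CPM in shCtr 1 and 3, and 19401 and 16399 CPM in shOSGEP 1 and 3. The part of the GC shift of shCtr 2 in these values was not tested. In replicates 1 and 3 the medians were -0.03 and -0.02, and 5 of the 12 were higher in each. Dct was lower in every replicate, with log2 ratios of -0.25, -3.30 and -0.38. Its groups did not overlap, beside 2.87% of all tested genes in the lower direction. Those of the other melanocyte markers overlapped. Endothelial, leukocyte and keratinocyte lists (7, 9 and 5 genes) summed to at most 7.57, 10.4 and 0.0492 CPM in shCtr and to at most 5.81, 5.73 and 0.0424 CPM in shOSGEP. Of these, 5, 5 and 5 genes were at or under the floor in all libraries, among them Cdh5, Kdr, Ptprc, Adgre1, Krt1 and Krt10 at 0. The cells thus carried melanocyte markers as labelled. In bulk RNA, more cells that express a gene and more RNA per cell cannot be told apart.

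The other genes of the matrix were taken from 6 lists of 239 genes without the 10 above, of which 138 were tested. In edgeR 9 of them passed the study threshold in the higher direction and 2 in the lower direction, that is 6.52% higher beside 1.59% of all tested genes, and none passed an adjusted p under 0.05 (smallest 1.00). Their median Log2FC was 0.22, with 84 above 0 and 54 below, beside -0.03 for all tested genes. The median was 0.07 without shOSGEP 1, where that of all tested genes was -0.13. Without shOSGEP 2 the number of matrix genes past the study threshold was 1, while that of all tested genes fell from 256 to 67. It was 6 without shCtr 1 and 6 without shCtr 3, beside 453 and 167 of all tested genes. Groups lay apart in the higher direction for 15 of the 138 genes, or 10.9%, beside 3.49% of all tested genes. In the lower direction they did for 2, beside 2.87%. The lists were chosen with earlier results of these data known, so these shares, and those of each list below, are a description.

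Among 42 other collagen genes, 19 were tested, 13 had a Log2FC above 0, and the median was 0.34 (0.17 without the replicate 2 pair). The study threshold was passed by 2 (10.5%), beside 1.59% of all tested genes in the higher direction. Col4a5, a basement membrane collagen chain, measured 35.4, 8.41 and 33.5 CPM in the shCtr libraries, against 86.2, 104.7 and 47.4 CPM in those of shOSGEP (Log2FC 1.62, SE 0.617). Its groups did not overlap, its unadjusted p in edgeR was 0.0292 and its adjusted p 1.00. Without the replicate 2 pair the Log2FC was 0.95. Col10a1, the collagen of hypertrophic cartilage, had a Log2FC of 1.45 (SE 0.601, unadjusted p 0.0410 in edgeR), and it overlaps Nt5dc1 on the opposite strand, whose Log2FC was 0.68. The Log2FC of Col10a1 was 0.90 without the replicate 2 pair. Col14a1, a fibril-associated collagen, had a Log2FC of -1.33 (SE 0.685) and did not pass, and it was -0.48 without shCtr 2. Col3a1, the fibrillar collagen that often accompanies collagen I, was at or under the floor in every library.

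Of 36 genes for procollagen folding, processing and crosslinking 27 were tested, with a median Log2FC of 0.17. The median had no stable direction, at -0.16 without shCtr 1, -0.10 without the replicate 1 pair, -0.02 without the replicate 3 pair and 0.38 without shCtr 2. The study threshold was passed by 1 gene (3.70%), beside 1.59% of all tested genes in the higher direction. This was Loxl4, a lysyl oxidase-like crosslinking enzyme, at 2.21, 2.16 and 2.77 CPM in shCtr and 4.88, 18.4 and 2.84 CPM in shOSGEP. Its Log2FC of 1.87 (SE 0.746, unadjusted p 0.0356 in edgeR) was 0.63 without the replicate 2 pair. P3h2, a prolyl 3-hydroxylase of collagen, and Fkbp14, a collagen chaperone, had Log2FC of 0.68 and 0.73 and did not pass.

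Proteoglycan core proteins had a median Log2FC of -0.05 over 15 tested of 38 listed genes, with 7 above and 8 below 0, but the median was 0.05 with 10 above 0 under upper-quartile scaling, which moved the median of all tested genes to 0.07. Leaving out 1 library moved it further, to 0.35 without shOSGEP 2 (11 of 15 above 0) and to -0.42 without shOSGEP 3 (5 of 15). Gpc4, a cell-surface heparan sulphate proteoglycan, was the only one past the study threshold (6.67%, beside 1.59% of all tested genes in the higher direction). It measured 1.53, 1.03 and 2.08 CPM in the shCtr libraries, against 4.79, 12.5 and 5.60 CPM in those of shOSGEP, without overlap (Log2FC 2.30, SE 0.611, unadjusted p 0.00518 in edgeR). Without both libraries of replicate 2 the Log2FC was 1.53. Sdc4 (syndecan-4) had a Log2FC of 0.75 and did not pass, and neither did Bcan (brevican), at 9.09, 20.7 and 9.18 CPM in shCtr libraries and 6.28, 3.60 and 9.55 CPM in shOSGEP libraries.

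The list of matricellular and other matrix glycoproteins had 27 of 59 genes tested, with a median Log2FC of 0.11, which was -0.04 without the replicate 1 pair. Its groups lay apart for 6 genes in the higher direction and for 1 in the lower direction, which 3.49% and 2.87% of all tested genes did. Ccn4, a matricellular target of Wnt signalling, measured 24.3, 5.01 and 19.1 CPM in the shCtr libraries, against 73.2, 175.6 and 26.7 CPM in those of shOSGEP (Log2FC 2.51, SE 0.818, unadjusted p 0.0148 in edgeR). Ccn1, its integrin-binding relative, measured 22.5, 9.14 and 30.4 CPM in the shCtr libraries, against 39.1, 97.0 and 33.5 CPM in those of shOSGEP (Log2FC 1.45, SE 0.617, unadjusted p 0.0455 in edgeR). Both had their highest value in shOSGEP 2 and their lowest in shCtr 2, and without that pair the Log2FC was 1.20 for Ccn4 and 0.46 for Ccn1. Spp1 (osteopontin) went the other way, from 3.48, 8.85 and 1.84 CPM in shCtr to 1.35, 0.232 and 1.48 CPM in shOSGEP (Log2FC -2.21, SE 0.867, unadjusted p 0.0336 in edgeR). Its Log2FC was -0.90 without the replicate 2 pair and -1.38 without shCtr 2.

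Matrix receptors had the highest median of the 6 lists, 0.53, with 18 of 21 tested genes (28 listed) above 0. Without shCtr 2 that median was 0.28, below the 0.38 of the procollagen list, and without shCtr 1 it was 0.90. The study threshold was passed by 2 receptor genes (9.52%), beside 1.59% of all tested genes in the higher direction. Itga7, the laminin-binding integrin alpha 7, had a Log2FC of 1.95 (SE 0.778, unadjusted p 0.0359 in edgeR) from 14, 12 and 3 counts in shCtr and 29, 77 and 19 counts in shOSGEP. Without shOSGEP 2 that Log2FC was 1.29. The Itga7 count in shCtr 3 was at the floor, and its shCtr libraries alone would not have passed the filter on low counts. The filter thus favoured the higher direction for Itga7. Mrc2, an endocytic collagen receptor, had a Log2FC of 1.38 (SE 0.591, unadjusted p 0.0465 in edgeR) from 10, 19 and 15 counts in shCtr and 29, 65 and 35 counts in shOSGEP. Itga9, an integrin that binds tenascin and osteopontin, had a Log2FC of 0.75 and did not pass.

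Regulators of matrix gene transcription had a median Log2FC of 0.02 over 29 tested of 36 listed genes, with 15 above and 14 below 0, and it ran from -0.15 without shCtr 2 to 0.24 without shCtr 3. Tgfb3, a growth factor that induces collagen synthesis, passed the study threshold (Log2FC 1.65, SE 0.697, unadjusted p 0.0448 in edgeR), but its groups overlapped and the Log2FC was 0.40 without the replicate 2 pair. Its span also overlaps Ttll5 on the opposite strand. Nfyc, a subunit of the factor NF-Y that binds CCAAT boxes, measured 44.6, 113.4 and 59.9 CPM in the shCtr libraries, against 21.7, 13.7 and 42.0 CPM in those of shOSGEP (Log2FC -1.49, SE 0.574, unadjusted p 0.0306 in edgeR). Its groups did not overlap, and the Log2FC was -0.71 without the replicate 2 pair. Cebpb had a Log2FC of 1.29 and did not pass.

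**Figure D5:**
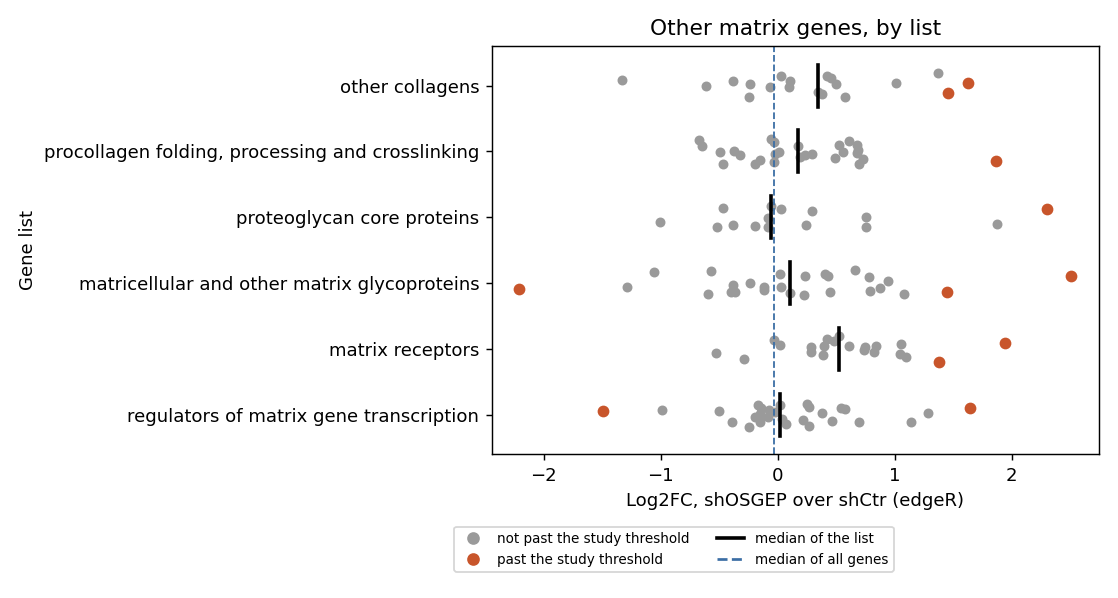
Each point is the edgeR Log2FC of one tested matrix gene outside the 10 genes (x axis), arranged by list (y axis); orange points passed the study threshold, black lines are list medians and the dashed line is the median of all tested genes (-0.03). The medians run from -0.05 for proteoglycan core proteins (0.05 under upper-quartile scaling) to 0.53 for matrix receptors.

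The profile of Col1a1 over the 6 libraries was compared with that of 10972 genes with a mean of at least 50 counts, as the root-mean-square difference of centred log2 CPM. The nearest genes were Fam131b (0.185), Adh7 (0.327), Nat8f3 (0.343), Tap2 (0.350) and Sod3 (0.412). Fam131b measured 4.08, 11.1 and 8.44 CPM in the shCtr libraries, against 23.4, 66.4 and 19.1 CPM in those of shOSGEP. Like Col1a1, it was lowest in shCtr 1 and highest in shOSGEP 2, which follows from its choice by likeness over these same libraries. The partner chain Col1a2 was farther away, at 1.13, while Fn1 was at 0.812, Thbs1 at 0.971, Sparc at 0.999, Ccdc80 at 1.11, Postn at 1.52 and Ogn at 1.58. These differences are a description over 6 libraries, which for Col1a1 rest on 3 to 63 counts.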

How the data were processed

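Polyadenylated RNA of 6 B16F10 libraries (3 shCtr, 3 shOSGEP) was sequenced in paired reads. The authors trimmed reads with TrimGalore, aligned them to GRCm38 with STAR 2.6.1d and deposited estimated counts per Ensembl gene from Salmon 1.4.0, written as whole numbers without normalization. The annotation release is not given in the sources used here. Salmon divides reads shared by similar transcripts by likelihood, so levels of overlapping or similar genes carry uncertainty. At most 1.87% of the 31-base words of any of the 10 genes (Fn1) occurred in another gene. Positions, lengths and codons were taken from GENCODE M21, which held 99.4% of the identifiers, and promoter windows from RefSeq, which held 6 of the 10 genes (Col1a1, Thbs1, Fn1 and Ccdc80 were not among them).

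The labels gave the group and the replicate number of each library. Genes were filtered by filterByExpr (minimum count 10, minimum total 15), scaled by TMM and tested two-sided with edgeR 4.0.16 (R 4.3.3), with Benjamini-Hochberg adjustment over 12669 genes. SE was derived from the Log2FC and the F statistic. The steps were tested on simulated data. Alternatives were DESeq2 1.42.0, limma 3.58.1 voom with sample quality weights, other filters, GC and length offsets (splines with 5 degrees of freedom), scaling by RLE or upper quartiles, a replicate block, and leaving out single libraries or same-numbered pairs. The floor of 3 counts was 0.116 to 0.147 CPM per library, and floors and intervals cover counting error only.

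The deviations of same-numbered libraries from their group means correlated across genes at 0.811, 0.557 and 0.196, all above 0.1. They were taken as pairs for the log2 ratios, the replicate block and the left-out pairs. The main edgeR fit did not use the pairing. The highest correlation between different numbers was 0.491, for shCtr 3 with shOSGEP 1, above the 0.196 of replicate 3. Pairing rests on these values and the shared numbers, and for replicate 3 on the number more than on its value. The labels do not say what a number marks.

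The 10 genes and all lists were chosen with earlier results of these data known. Named were the 10 genes, Osgep, up to 3 genes with the smallest unadjusted p in each matrix list, the 5 genes nearest to Col1a1 and listed cell type markers. Col3a1 was named under the fibroblast markers. Genes that overlap a named gene were added for the overlap alone.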

Additional observations from a re-analysis of the deposited data

How the results depend on the processing

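The count of genes with an adjusted p under 0.05 was 0 in edgeR under every other scaling, filter, offset, block and left-out library, 14 with DESeq2 and 3 with limma-voom with sample quality weights. Past the study threshold, 256 genes became 560 with limma-voom, 599 without a low-count filter, which tested more genes, 692 with GC and length offsets and 870 with these offsets and the replicate block. Leaving out libraries gave between 67 (without shOSGEP 2) and 453 (without shCtr 1). The replicate block alone gave 373, kept the number of the 10 genes past the threshold at 5 and gave 12 other matrix genes in place of 11. With offsets and the block these numbered 19, and leaving out libraries gave between 1 (without shOSGEP 2) and 10. Of the 10 genes, 5 passed the study threshold, and 2 where each library had to hold at least 10 counts. Ogn, Ccdc80 and Col1a1 are then not tested. Without a low-count filter 6 passed, as they did with GC and length offsets, with or without the replicate block. Leaving out libraries gave between 2 (without shOSGEP 2) and 5 of the 10 genes. The Log2FC of Sparc was -0.0094 without shCtr 1 and 0.32 at most. The median of all genes moved from -0.03 to 0.07 under upper-quartile scaling and to -0.13 without shOSGEP 1. Apart from the changes in tested genes, the cause of these moves was not tested. Depth limits Bgn, Thbs2 and the shCtr values of Ogn, Ccdc80 and Col1a1, which had at most 9 counts per library.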
